A study of Homo sapiens with 12 samples.

Results

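The expression of 10 genes of the EGFR family was examined across 12 RNA-seq libraries of 4 human cancer cell lines: the receptors *EGFR*, *ERBB3* and *ERBB4*, and the ligands *AREG*, *EREG*, *TGFA*, *EPGN*, *HBEGF*, *BTC* and *NRG1*. The genes were taken by name from a table of read counts for 57187 genes, and all 10 were found. The breast cancer lines were MDA-MB-231 and HCC1954, and those from ovarian cancer OVCAR8 and SKOV3. Per line there were 1 control library, 1 library of cells transfected with wild-type *SIVA* (*SIVA-WT*) and 1 of cells transfected with the mutant *SIVA-D160N*. The controls are called parental and untreated in the labels and EV in the study's own tables, and the name EV is used here, although whether these cells carried an empty vector was not settled. The transfectants carried a linearised CMV-promoter vector, were selected in hygromycin and, for HCC1954, OVCAR8 and SKOV3, were polyclonal per the study's methods. All cells grew in RPMI-1640 with serum. Nothing in the labels says which libraries came from separate cultures.

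EGFR, ERBB3 and ERBB4 are receptor tyrosine kinases of the cell surface that, with the ligand-less partner ERBB2, pair up once a ligand binds and then signal through the RAS-MAPK and PI3K-AKT routes. The ligands are made as membrane-anchored precursors and are released by metalloproteases such as ADAM17. Amphiregulin, epiregulin, TGF-alpha, epigen, HB-EGF and betacellulin bind EGFR, several of them ERBB4 too, while neuregulin 1 binds ERBB3 and ERBB4. EGFR is common in basal-like breast cancer, and HCC1954 and SKOV3 are widely used as lines with amplified *ERBB2*.

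Library totals ran from 35791455 to 45890398 counts, so that 3 counts, taken as the limit of detection, equalled 0.0664 to 0.0856 CPM. CPM, the unit of all levels below, is the count of a gene relative to its library's total, here adjusted by edgeR's TMM factors. *SIVA1* itself was 2.02- to 2.87-fold higher in the transfected libraries than in EV in MDA-MB-231, OVCAR8 and SKOV3, but the EV library of HCC1954 held 0 *SIVA1* counts while its *SIVA-WT* and *SIVA-D160N* libraries held 1646 and 930. That library thus stood apart from the other controls, and values without HCC1954 are given beside the family results of *SIVA-D160N* vs EV. *PAX8*, a marker of Mullerian-type epithelium, stood at 61.1 to 243 CPM in the ovarian lines and at 1.56 to 3.43 CPM in the breast lines. The other ovarian markers did not follow the labels: *WT1* averaged 6.65 CPM in HCC1954, 6.41 in OVCAR8 and 0.726 in SKOV3, and *EMX2* was at most 0.348 CPM in any library and at 0 counts in OVCAR8. Nor did the breast markers as a set. *GATA3* averaged 46.6 CPM in HCC1954, 5.96 in OVCAR8, 2.19 in MDA-MB-231 and 0.0082 in SKOV3. *TRPS1* was highest in SKOV3 (40.2 CPM), and *TFAP2A* was lowest in MDA-MB-231 (5.12 CPM). The summed level of 3 leukocyte markers stayed at or below 0.697 CPM in every library. The endothelial markers *PECAM1*, *CDH5* and *VWF* summed to 46.2 to 91.6 CPM in HCC1954 and to at most 4.05 CPM in the other lines. In bulk RNA, fewer cells expressing a gene and less of its RNA per cell cannot be told apart.

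Calls among the family lay between cell lines and not between conditions. With the 3 libraries of a line standing in for its replicates, edgeR called 43 of 60 gene-by-line-pair comparisons at a false discovery rate (FDR) below 0.05 and a log2 difference of 1.5 or more in size. Between MDA-MB-231 and HCC1954, 9 of 10 family genes were called, against 33.0% of all 19204 genes tested. The counts were 7 of 10 between MDA-MB-231 and OVCAR8 (26.3% of all genes), 6 between MDA-MB-231 and SKOV3 (29.6%), 8 between HCC1954 and OVCAR8 (34.3%), 8 between HCC1954 and SKOV3 (32.8%) and 5 between OVCAR8 and SKOV3 (31.1%). *EPGN* passed the filter on low counts only through HCC1954, with 188 to 526 counts per library there and 0 to 6 elsewhere. Its calls against HCC1954, included in these counts, therefore follow from its selection. The same holds for the calls of *ERBB4* against SKOV3, since it passed only through that line. *ERBB4* had 227 to 361 counts per library in SKOV3 and 0 to 23 elsewhere. *EGFR* was called in 0 of its 6 line pairs, *ERBB4* and *HBEGF* in all 6, and the remaining genes in 4 or 5. Some of these calls rested on few counts. That of *ERBB4* between HCC1954 and OVCAR8 (12 against 1 summed counts) was lost without EV (edgeR FDR 0.0894) or *SIVA-WT* (0.0576). Its call between MDA-MB-231 and HCC1954 was lost without *SIVA-WT* (FDR 0.0542). That of *EPGN* between OVCAR8 and SKOV3 (2 against 12 summed counts) was lost in 4 alternative settings.

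**Figure D1:**
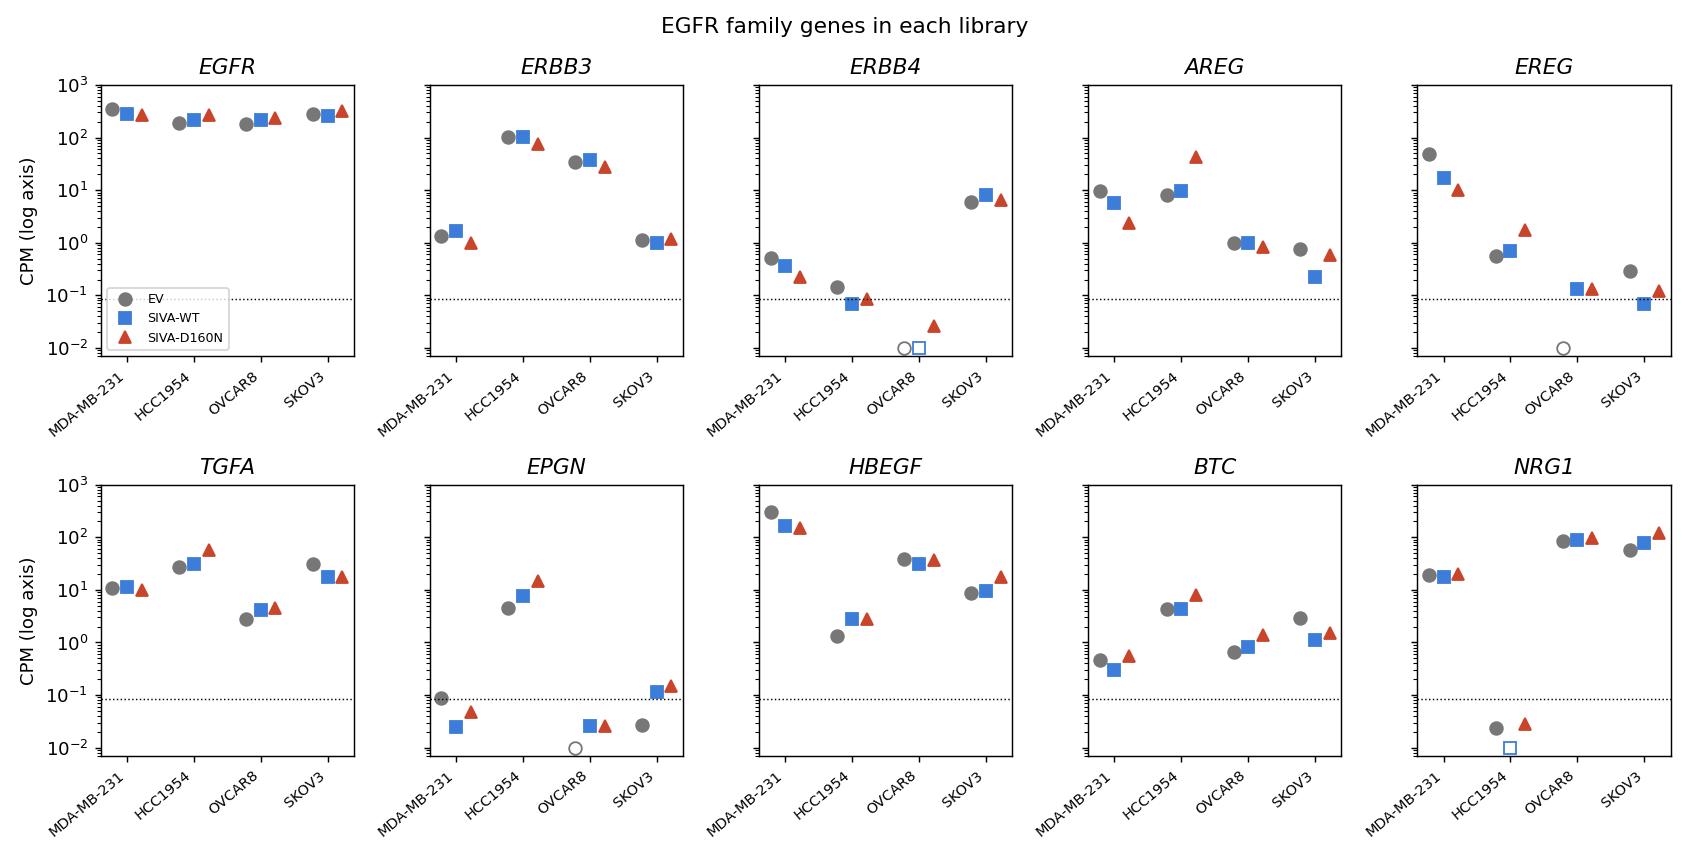
CPM of each EGFR family gene (log axis) in the 12 libraries, with 1 symbol per library, by cell line and condition. Hollow symbols at the bottom are libraries with 0 counts, and the dotted line marks 0.0856 CPM, the highest detection limit. *EGFR* lay between 180 and 353 CPM in every library, while *NRG1* was near or at 0 counts in HCC1954 alone.

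Among the receptors, *EGFR* was abundant in every line. It stood at 353, 285 and 266 CPM in the EV, *SIVA-WT* and *SIVA-D160N* libraries of MDA-MB-231, and at 283, 254 and 323 CPM in those of SKOV3. HCC1954 gave 185, 218 and 267 CPM, and OVCAR8 gave 180, 220 and 232 CPM in the same order. The line means ran from 301 CPM in MDA-MB-231 to 211 CPM in OVCAR8, and the values of neighbouring lines in that order overlapped. These 2 end lines did not overlap, and differed by 0.54 on the log2 scale (SE 0.16, edgeR FDR 0.0094). By FDR alone 4 of the 6 line pairs of *EGFR* passed, all under the size threshold. EV was the highest library in MDA-MB-231 and the lowest in HCC1954 and OVCAR8.

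*ERBB3*, which encodes a receptor with little kinase activity of its own that binds neuregulins, was abundant in HCC1954 and OVCAR8 and low in the other two lines. HCC1954 held 101, 101 and 75.3 CPM in EV, *SIVA-WT* and *SIVA-D160N*, and OVCAR8 held 34.4, 37.0 and 27.4 CPM. MDA-MB-231 gave 1.33, 1.64 and 0.972 CPM, and SKOV3 gave 1.11, 1.01 and 1.16 CPM. OVCAR8 exceeded MDA-MB-231 by 4.64 on the log2 scale (SE 0.16, edgeR FDR 1.02e-09), whereas MDA-MB-231 and SKOV3 overlapped and did not pass the test (log2 difference 0.25, SE 0.18, FDR 0.224). HCC1954 and OVCAR8 did not overlap, and their log2 difference of 1.49 (SE 0.13, FDR 7.61e-07) fell just short of the size threshold.

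*ERBB4*, the second neuregulin receptor, was found mainly in SKOV3, at 6.01, 8.09 and 6.50 CPM in EV, *SIVA-WT* and *SIVA-D160N*. MDA-MB-231 held 23, 14 and 9 counts, HCC1954 6, 3 and 3, and OVCAR8 0, 0 and 1. Summed over the 3 libraries of each line, *ERBB4* was 18.96-fold higher in SKOV3 than in MDA-MB-231 (95% counting interval 14.1 to 26.1) and 69.1-fold higher than in HCC1954 (39.4 to 134). The ratio to the single count of OVCAR8 was 781 (140 to 30899). Intervals of this kind cover counting error only.

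The ligands fell into different lines. *AREG*, *EREG*, *EPGN* and *BTC* lie together on chromosome 4 (RefSeq, GRCh38.p14), within 486.1 kb from base 74308470 to 74794523 and with no other protein-coding gene listed between them. *EPGN* lies at chr4:74308470-74316789, *EREG* at chr4:74365145-74388749 and *AREG* at chr4:74445136-74455005, all on the plus strand, and *BTC* at chr4:74744759-74794523 on the minus strand. *TGFA* lies at chr2:70447284-70553826, *ERBB4* at chr2:211375717-212538802 and *HBEGF* at chr5:140332843-140346603, all on the minus strand, and *EGFR* at chr7:55019017-55211628 on the plus strand. *ERBB3* lies at chr12:56080108-56103505.

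Promoter windows were listed for 8 of the 10 genes, all but *ERBB3* and *NRG1*. The 250 bases before the RefSeq start are shown for *AREG* (chr4:74444886-74445135), *EREG* (chr4:74364895-74365144) and *EPGN* (chr4:74308220-74308469), plus strand, and for *BTC* (chr4:74794524-74794773), minus strand, since these 4 neighbours were all higher in the *SIVA-D160N* library of HCC1954 than in its EV library. Capitals mark every match, on either strand, to the cAMP response element TGACGTCA, the TATA box TATAAA, the AP-1 site TGANTCA, the TEAD site GGAATG and the GC box GGGCGG.
AREG: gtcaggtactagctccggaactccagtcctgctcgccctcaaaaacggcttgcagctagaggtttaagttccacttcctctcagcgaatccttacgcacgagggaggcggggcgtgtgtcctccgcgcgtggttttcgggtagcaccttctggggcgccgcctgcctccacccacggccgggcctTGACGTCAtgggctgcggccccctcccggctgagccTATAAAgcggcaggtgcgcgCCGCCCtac
EREG: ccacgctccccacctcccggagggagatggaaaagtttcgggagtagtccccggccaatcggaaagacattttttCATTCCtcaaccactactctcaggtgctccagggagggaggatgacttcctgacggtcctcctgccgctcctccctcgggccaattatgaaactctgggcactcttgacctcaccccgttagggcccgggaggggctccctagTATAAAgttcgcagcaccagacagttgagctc
EPGN: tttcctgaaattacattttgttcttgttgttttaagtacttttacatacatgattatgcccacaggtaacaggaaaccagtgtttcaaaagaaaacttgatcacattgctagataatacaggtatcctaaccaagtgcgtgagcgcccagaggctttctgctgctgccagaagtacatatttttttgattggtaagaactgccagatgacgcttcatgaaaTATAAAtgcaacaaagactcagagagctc
BTC: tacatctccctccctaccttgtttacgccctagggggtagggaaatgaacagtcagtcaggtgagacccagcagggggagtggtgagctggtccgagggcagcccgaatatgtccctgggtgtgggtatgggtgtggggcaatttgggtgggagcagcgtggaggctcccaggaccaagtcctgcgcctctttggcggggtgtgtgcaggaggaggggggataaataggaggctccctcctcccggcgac
Of the 4, *AREG*, *EREG* and *EPGN* held TATAAA, starting 29 bases before the start in *AREG* and *EPGN* and 32 bases before it in *EREG*, while *BTC* held none of the motifs searched. TATAAA occurred in 10.7% of all 35116 windows of this length. *AREG* alone of the 8 genes held TGACGTCA, 65 to 58 bases before its start, a motif found in 1.65% of all windows. *EREG* held GGAATG on the minus strand (11.9% of all windows), *AREG* held GGGCGG on the minus strand (42.6%), and TGANTCA (6.57%) was in none of the 4. Elsewhere in the family, the second of 2 listed *EGFR* windows held TATAAA at 146 and 36 bases before its start, TGANTCA at 232 and 136 bases and GGAATG on the minus strand. All matches in *HBEGF*, *ERBB4*, the first *EGFR* window and the first of 2 *TGFA* windows were to GGGCGG, and the second *TGFA* window held none. These are matches of letters and say nothing of binding in these cells.

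*AREG* encodes amphiregulin, an EGFR ligand. In MDA-MB-231 it stood at 9.62, 5.66 and 2.33 CPM in EV, *SIVA-WT* and *SIVA-D160N*. In HCC1954 it stood at 8.23, 9.61 and 42.2 CPM. OVCAR8 held 0.987, 0.972 and 0.837 CPM, and SKOV3 0.768, 0.224 and 0.591 CPM. The *SIVA-D160N* library of HCC1954 was the highest of the 12 and that of MDA-MB-231 the lowest of its line. The call between HCC1954 and MDA-MB-231 (log2 difference 1.57, SE 0.64, FDR 0.0472) was lost without the *SIVA-D160N* libraries of all lines, where MDA-MB-231 minus HCC1954 was -0.27 on the log2 scale (FDR 0.507). It was also lost without the *SIVA-WT* libraries (-2.09, FDR 0.0586) and with limma-voom (-1.54, FDR 0.0531).

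*EREG*, which encodes epiregulin, was highest in MDA-MB-231, where it stood at 47.8, 17.4 and 9.89 CPM in EV, *SIVA-WT* and *SIVA-D160N*. HCC1954 held 0.552, 0.697 and 1.71 CPM, from 23, 30 and 60 counts. SKOV3 held 11, 3 and 5 counts and OVCAR8 0, 5 and 5. Summed over libraries, MDA-MB-231 was 292-fold above OVCAR8 (95% counting interval 158 to 609). As with *AREG*, the *SIVA-D160N* library was the lowest of MDA-MB-231 and the highest of HCC1954.

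*TGFA*, which encodes TGF-alpha, was expressed in all 4 lines. It was highest in HCC1954, at 27.4, 30.9 and 58.1 CPM in EV, *SIVA-WT* and *SIVA-D160N*, and lowest in OVCAR8, at 2.82, 4.07 and 4.53 CPM. SKOV3 gave 31.4, 17.9 and 17.3 CPM, and MDA-MB-231 10.9, 11.1 and 10.0 CPM. HCC1954 and SKOV3 overlapped, while the other neighbours did not. The call between MDA-MB-231 and OVCAR8 (log2 1.51, SE 0.32, FDR 0.00136) lay at the size threshold.

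*EPGN*, which encodes epigen, was detected beyond a few counts only in HCC1954, at 4.51, 7.78 and 15.0 CPM in EV, *SIVA-WT* and *SIVA-D160N*. The other lines held 0 to 6 counts per library. Its summed level in HCC1954 was 89.8-fold above SKOV3 (95% counting interval 51.2 to 174), the line with the next highest level.

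*HBEGF* encodes HB-EGF, a ligand of EGFR and ERBB4, and separated all 4 lines. MDA-MB-231 held 308, 162 and 148 CPM in EV, *SIVA-WT* and *SIVA-D160N*, and OVCAR8 38.5, 31.1 and 36.3 CPM. SKOV3 held 8.69, 9.59 and 17.2 CPM, and HCC1954 1.34, 2.83 and 2.80 CPM. No 2 lines overlapped, and neighbours in the order differed by 2.56 (SE 0.33, FDR 3.74e-05), 1.58 (SE 0.33, FDR 0.00112) and 2.33 (SE 0.37, FDR 0.000145) on the log2 scale.

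*BTC*, which encodes betacellulin, was low throughout. It was highest in HCC1954, at 4.39, 4.32 and 8.16 CPM in EV, *SIVA-WT* and *SIVA-D160N*. SKOV3 held 2.97, 1.10 and 1.53 CPM, OVCAR8 0.658, 0.815 and 1.39 CPM, and MDA-MB-231 0.464, 0.303 and 0.559 CPM. SKOV3 and OVCAR8 overlapped, and OVCAR8 lay above MDA-MB-231 by 1.10 on the log2 scale (SE 0.41, FDR 0.0348), under the size threshold.

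*NRG1* (chr8:31639245-32774046), which encodes neuregulin 1, was abundant in both ovarian lines and at 0 or 1 counts in HCC1954. OVCAR8 held 85.9, 90.5 and 95.0 CPM in EV, *SIVA-WT* and *SIVA-D160N*, and SKOV3 58.3, 78.8 and 122.5 CPM. MDA-MB-231 held 19.2, 17.8 and 19.9 CPM, and HCC1954 1, 0 and 1 counts. The ovarian lines overlapped (log2 0.10, SE 0.17, FDR 0.611), and SKOV3 lay above MDA-MB-231 by 2.13 (SE 0.18, FDR 9.5e-07). The summed ratio of MDA-MB-231 to HCC1954 was 1140 (95% counting interval 315 to 9418). Among the 3 lines with *NRG1* RNA, only OVCAR8 also held *ERBB3* above 2 CPM, and only SKOV3 held *ERBB4* above 1 CPM.

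**Figure D2:**
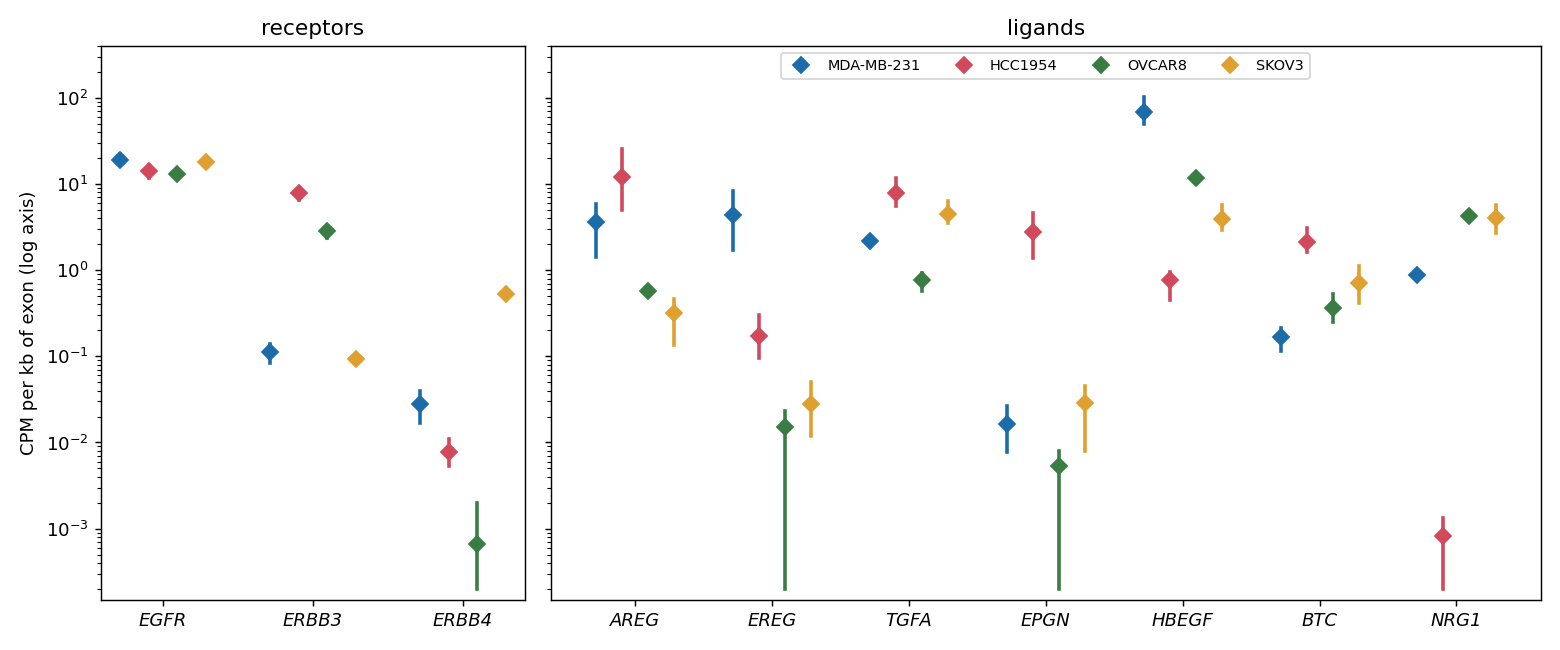
CPM per kb of exon (log axis) of the receptors and ligands in each line, where diamonds are means of the 3 libraries and bars run from the lowest to the highest library. Bars that end at the bottom include a library with 0 counts. *HBEGF* in MDA-MB-231 lies highest, at a mean of 68.9 CPM per kb.

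Genes can be ranked against each other only per length, here per kb of summed exon of all annotated transcripts, which understates genes with many isoforms such as *NRG1*. On this scale of levels, *HBEGF* led the family in MDA-MB-231 at 68.9 ± 29.6 CPM per kb (SD, n = 3), followed by *EGFR* at 18.9 ± 2.88. In HCC1954 *EGFR* stood at 14.0 ± 2.59, *AREG* at 12.2 ± 11.7 and *ERBB3* and *TGFA* each at 7.89 CPM per kb. OVCAR8 held *EGFR* at 13.2 ± 1.71, *HBEGF* at 11.8 ± 1.27 and *NRG1* at 4.23 ± 0.21. SKOV3 held *EGFR* at 18.0 ± 2.18, and *TGFA*, *NRG1* and *HBEGF* between 3.96 and 4.52 CPM per kb. *EGFR* was thus the highest receptor of the 3 in each line. The leading ligand by mean on this scale was *HBEGF* in MDA-MB-231 and OVCAR8, *AREG* in HCC1954 and *TGFA* in SKOV3. In the ovarian lines this order depends on the length used for *NRG1*. Before division by length, *NRG1* averaged 90.5 CPM against 35.3 for *HBEGF* in OVCAR8, and 86.6 CPM against 22.2 for *TGFA* in SKOV3. The leading ligand of these lines was therefore not settled. The lead of *AREG* in HCC1954 came from the *SIVA-D160N* library, at 25.7 against 11.8 CPM per kb for *TGFA*, whereas *TGFA* stood above *AREG* in EV (5.57 against 5.01) and *SIVA-WT* (6.29 against 5.86). In SKOV3 the values of *TGFA*, *NRG1* and *HBEGF* overlapped. The partner *ERBB2* stood far above them, at 732 ± 169 CPM per kb in HCC1954 and 872 ± 301 in SKOV3, against 3.36 ± 0.22 in MDA-MB-231 and 7.18 ± 0.42 in OVCAR8.

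The genes whose profile over the 12 libraries was most like that of a family gene were found by Pearson's r of log2 CPM, as a description. The libraries share 4 lines, so these values mostly follow line differences. *TGFA* was most like *MET*, a receptor tyrosine kinase for hepatocyte growth factor (r = 0.989, Spearman's rho = 0.986), and *TGFBR1*, a TGF-beta receptor (r = 0.986, rho = 0.972). *EGFR* was most like *NFKB1*, an NF-kappaB subunit (r = 0.973, rho = 0.93). *ERBB3* paired with *RTN4RL1* (r = 0.998) and *NRG1* with *ZNF583* (r = 0.997).

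Expression of *SIVA-D160N* or *SIVA-WT* moved no family gene past the thresholds across the 4 lines. In *SIVA-D160N* vs EV, edgeR called 0 of the 9 family genes that passed the filter on low counts, against 1 of 17211 genes in all (0.00581%), and 2 family genes and 2445 genes in all had an unadjusted p under 0.05. *EPGN* did not pass the filter. The median log2 fold change of the 9 was 0.17, against -0.0090 for all genes, with 6 higher and 3 lower. In *SIVA-WT* vs EV, edgeR called 0 of 9 (0% of all genes), with 0 family genes and 437 genes in all at an unadjusted p under 0.05, and the family median was -0.091. In *SIVA-D160N* vs *SIVA-WT* it called 0 of 9 (0% of all genes), with 2 family genes and 1184 genes in all at an unadjusted p under 0.05, and the family median was 0.275 against -0.0029 for all genes. DESeq2 and limma-voom also called 0 of the 9 in each comparison, as did edgeR without HCC1954. The comparisons share libraries and are not independent.

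**Figure D3:**
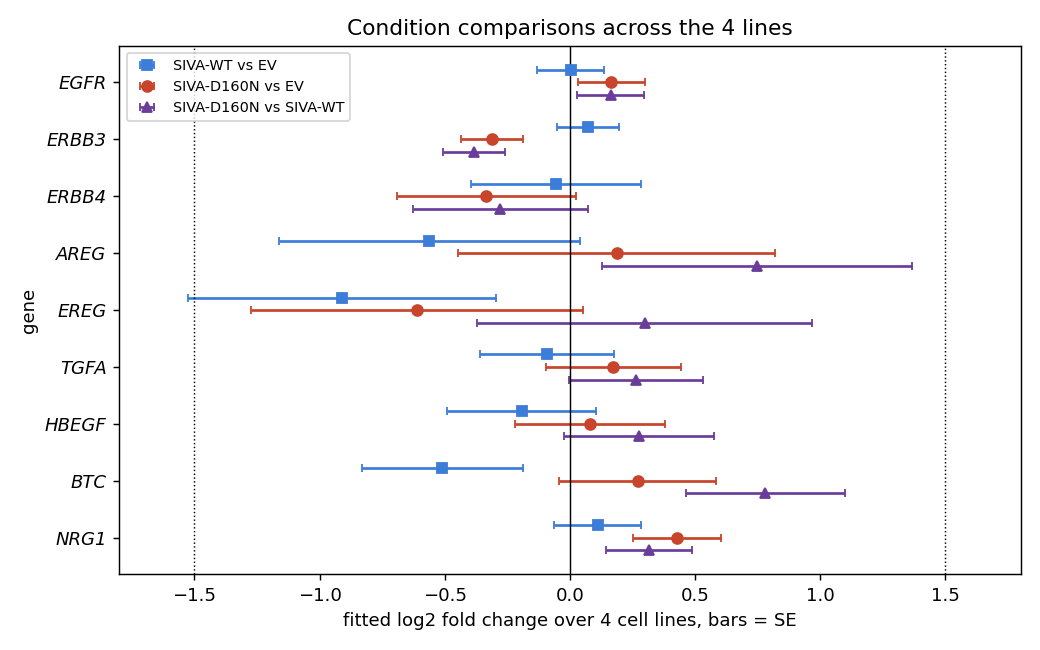
Fitted log2 fold change (points) with its SE (bars) for the 9 tested family genes in the 3 condition comparisons, over the 4 lines. Dotted lines mark the size threshold of 1.5, which no gene passes, and the widest bars belong to *AREG* and *EREG*.

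*NRG1* and *ERBB3* were the 2 family genes with an unadjusted p under 0.05 in *SIVA-D160N* vs EV. *NRG1* was higher by 0.43 on the log2 scale (SE 0.17, FDR 0.314), in 4 of 4 lines by ratio, although HCC1954 rests on 1 count against 1. Its ratio was 2.10 in SKOV3, 1.11 in OVCAR8 and 1.04 in MDA-MB-231, and without SKOV3 the log2 fold change was 0.099 (FDR 0.814). *ERBB3* was lower by ratio in MDA-MB-231 (0.732), HCC1954 (0.749) and OVCAR8 (0.797) and stood at 1.04 in SKOV3, for a log2 fold change of -0.31 (SE 0.12, FDR 0.302). Without HCC1954, *ERBB3* was at -0.25 (FDR 0.692) and *NRG1* at 0.43 (FDR 0.479), while *TGFA* went from 0.17 to -0.18 (FDR 0.861) and *BTC* from 0.27 to -0.0084 (FDR 1). With HCC1954 left out in the same way, *EGFR* went from 0.17 to 0.047 (FDR 0.947) and *ERBB4* from -0.33 to -0.24 (FDR 0.878). Against *SIVA-WT* the *ERBB3* log2 fold change was -0.38 (SE 0.12, FDR 0.719). *BTC* was higher in 4 of 4 lines in *SIVA-D160N* vs *SIVA-WT* (log2 0.78, SE 0.32, FDR 0.719), with ratios of 1.84, 1.89, 1.70 and 1.39 in MDA-MB-231, HCC1954, OVCAR8 and SKOV3. None of these passed the FDR threshold.

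*AREG*, *EREG* and *HBEGF* lay on opposite sides of EV in the 2 breast lines. In MDA-MB-231, *SIVA-D160N* vs EV gave a 4.13-fold lower level of *AREG* (95% counting interval 3.30 to 5.20), a 4.84-fold lower level of *EREG* (4.35 to 5.39) and a 2.08-fold lower level of *HBEGF* (2.01 to 2.14). In HCC1954 the same comparison gave *AREG* 5.13-fold higher (4.56 to 5.79), *EREG* 3.10-fold higher (1.89 to 5.26) and *HBEGF* 2.08-fold higher (1.48 to 2.95). Each value compares 1 pair of libraries and has no replicate check. Across the lines, *AREG* came to a log2 fold change of 0.19 (SE 0.63, FDR 0.924), *EREG* to -0.61 (SE 0.66, FDR 0.717) and *HBEGF* to 0.082 (SE 0.30, FDR 0.929). Without HCC1954, *AREG* was at -1.03 (FDR 0.491), *EREG* at -1.83 (FDR 0.385) and *HBEGF* at -0.092 (FDR 0.946), and without MDA-MB-231 *AREG* was at 0.98 (FDR 0.546), *EREG* at 0.89 (FDR 0.665) and *HBEGF* at 0.58 (FDR 0.453).

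**Figure D4:**
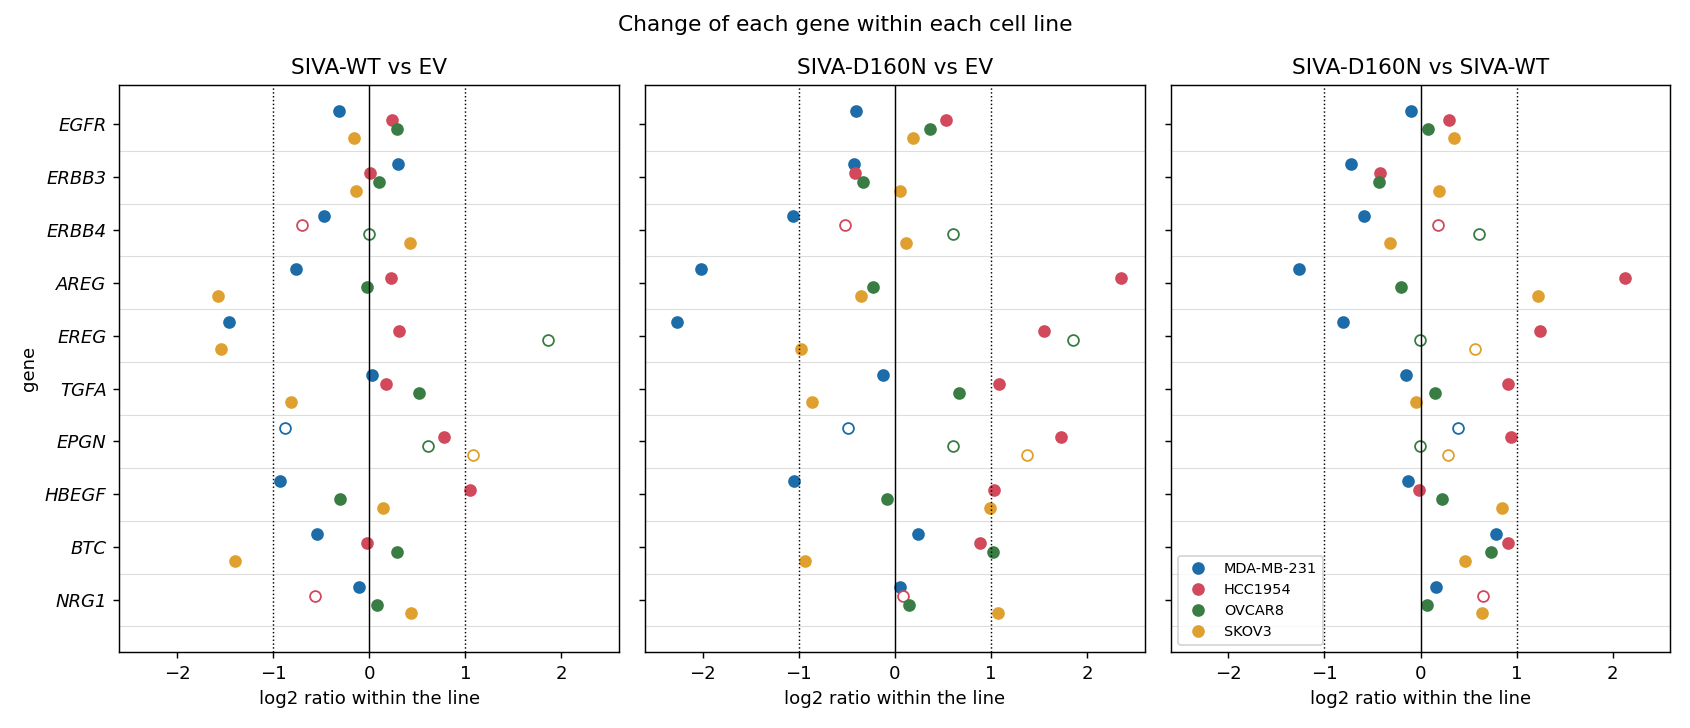
Log2 ratio of each family gene within each cell line (colour) in the 3 condition comparisons, with a prior count of 2. Each point compares 1 library with 1 other, hollow points have under 10 counts in both, and dotted lines mark 2-fold. In *SIVA-D160N* vs EV, *AREG* and *EREG* lie left of the lower line in MDA-MB-231 and right of the upper line in HCC1954.

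In HCC1954, 4 of 9 tested family genes passed 2-fold in *SIVA-D160N* vs EV, all upward (*AREG*, *EREG*, *TGFA* and *HBEGF*), against 10.2% of all tested genes in either direction. *TGFA* was 2.12-fold higher (95% counting interval 1.97 to 2.28), and *EPGN*, which the filter had left out, was 3.33-fold higher (2.81 to 3.95). *BTC*, the fourth gene of the chromosome 4 cluster, was 1.86-fold higher (1.54 to 2.25). Because the EV library of HCC1954 lacked *SIVA1* counts, *SIVA-D160N* was also set against *SIVA-WT*, where 2 of 9 passed 2-fold (8.78% of all genes). These were *AREG*, 4.39-fold higher (3.94 to 4.91), and *EREG*, 2.46-fold higher (1.56 to 3.95), while *EPGN* was 1.93-fold, *BTC* 1.89-fold and *TGFA* 1.88-fold higher and *HBEGF* stood at 0.987-fold (0.749 to 1.30). *SIVA-WT* vs EV gave 1 of 9, *HBEGF* (4.49% of all genes). In HCC1954, 3 of 3 mesenchymal markers (*VIM*, *CDH2*, *ZEB1*) were higher in *SIVA-D160N* than in EV. Their summed level ran 95.8, 162 and 292 CPM in EV, *SIVA-WT* and *SIVA-D160N*. Nearly all of it was *VIM* (95.6 to 290 CPM), while *CDH2* held 3 to 13 counts per library and *ZEB1* 7 to 57. The 5 epithelial markers summed to 5876, 5755 and 7527 CPM in the same order, with 2 higher and 3 lower in *SIVA-D160N* than in EV. The endothelial markers were 3 of 3 lower, summing to 91.6, 79.0 and 46.2 CPM. The part of any of these markers in the ligand values was not tested.

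In MDA-MB-231, 4 of 9 passed 2-fold in *SIVA-D160N* vs EV, all downward (*ERBB4*, *AREG*, *EREG* and *HBEGF*), against 6.82% of all genes. *ERBB4* rested on 9 against 23 counts. *SIVA-WT* vs EV gave 1 of 9 (4.57% of all genes), *EREG* at 2.76-fold lower (95% counting interval 2.53 to 3.01), with *HBEGF* 1.90-fold and *AREG* 1.70-fold lower. *SIVA-D160N* vs *SIVA-WT* gave 1 of 9 (3.83%), *AREG* at 2.43-fold lower (1.90 to 3.12). The EV library was thus the highest of the line for *AREG*, *EREG*, *HBEGF* and *EGFR*. The summed level of the mesenchymal markers was 4040 CPM in EV and 3337 and 3334 CPM in *SIVA-WT* and *SIVA-D160N*. Of these markers, 1 was higher and 2 were lower in *SIVA-D160N* than in EV.

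In the ovarian lines the genes past 2-fold were *BTC* and *NRG1*, besides *AREG* and *EREG*, which also passed in the breast lines. In OVCAR8, *SIVA-D160N* vs EV gave 2 of 9 past 2-fold (3.51% of all genes): *BTC*, 2.11-fold higher (95% counting interval 1.28 to 3.57), and *EREG*, with 5 counts against 0. Set against the limit of 3 counts, *EREG* was 1.59-fold higher, and it passes 2-fold only through the prior count. Its 95% counting interval starts at 0.875, so no change was not excluded. *SIVA-WT* vs EV gave 1 of 9 there, again *EREG* with 5 counts against 0 (3.16%), and *SIVA-D160N* vs *SIVA-WT* gave 0 (2.78%). In SKOV3, *SIVA-D160N* vs EV gave 1 of 9 (8.74%), *NRG1*, 2.10-fold higher (1.997 to 2.209), with *HBEGF* 1.98-fold higher (1.74 to 2.27) and *TGFA* 1.82-fold lower (1.655 to 1.999). *SIVA-WT* vs EV gave 3 of 9 in SKOV3 (5.79%), all downward: *AREG* at 10 against 29 counts, *EREG* at 3 against 11 counts and *BTC*, 2.70-fold lower (1.91 to 3.86). *SIVA-D160N* vs *SIVA-WT* gave 1 of 9 (3.09%), *AREG*, at 24 against 10 counts.

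A test of whether the *SIVA-D160N* vs EV change differed between ovarian and breast lines called 0 of 9 family genes, against 0.00581% of all genes, with 0 family genes and 871 genes in all at an unadjusted p under 0.05. Its log2 values, ovarian minus breast, ran from -0.86 for *AREG* (SE 1.37) to 1.26 for *ERBB4* (SE 0.66), with FDR at 1 for all 9. Without HCC1954 the *AREG* value turned to 1.71 (FDR 0.723), and without MDA-MB-231 that of *HBEGF*, 0.78 over all lines, turned to -0.62 (FDR 0.916) and that of *EREG*, 0.57 over all lines, to -1.76 (FDR 0.918). The 2 breast lines themselves went opposite ways for *AREG*, *EREG* and *HBEGF*.

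*EPGN* depended on the filter. Kept in by a filter per cell line, it gave a *SIVA-D160N* vs EV log2 fold change of 1.502 (SE 0.41, FDR 0.172), and with no filter 1.503 (SE 0.39, FDR 0.0293), which passed both thresholds. Its counts outside HCC1954 were 0 to 6, so that this value came almost wholly from 188 and 526 counts in that line, whose EV library stood apart.

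Other genes of the pathway gave 0 calls in each condition comparison. In *SIVA-D160N* vs EV, 14.2% of all genes had an unadjusted p under 0.05, the background for the counts that follow, and these genes were not refitted without HCC1954. Of 5 further receptors and ligands, 3 were tested and 1 had an unadjusted p under 0.05, and all 3 were lower in *SIVA-D160N* vs EV, from *ERBB2* at -0.44 on the log2 scale (SE 0.16, FDR 0.265) to *NRG2*, another neuregulin, at -0.16. *ERBB2* stood at 9223, 7697 and 5736 CPM in EV, *SIVA-WT* and *SIVA-D160N* of HCC1954 and at 12170, 8860 and 5964 CPM in those of SKOV3. OVCAR8 gave 78.1, 74.6 and 69.5 CPM and MDA-MB-231 32.1, 36.4 and 35.4 CPM. *ERBB2* was thus lower in 3 lines and higher in 1 in *SIVA-D160N* vs EV. Of 7 tested genes of ligand release, 2 had an unadjusted p under 0.05, and the extremes were *ADAM12*, a metalloprotease, at 0.62 and *RHBDF1*, which encodes the iRhom1 partner of ADAM17, at -0.34. Of 13 tested adaptors and effectors, 4 had an unadjusted p under 0.05, from *PTPN11*, which encodes the phosphatase SHP2, at 0.23 to the adaptor *GRB10* at -0.59 (SE 0.16, FDR 0.176, lower in 4 of 4 lines). Of 16 tested genes of attenuation and turnover, 3 had an unadjusted p under 0.05, from *UBASH3B*, a phosphatase that binds the ubiquitin ligase CBL, at 0.42 to *LRIG1*, a receptor-lowering membrane protein, at -0.62. The median log2 fold changes of these 4 groups were -0.29, 0.11, 0.0094 and 0.061, against -0.0090 over all genes. In *SIVA-WT* vs EV the smallest FDR in each group was 1, and in *SIVA-D160N* vs *SIVA-WT* the smallest lay between 0.725 and 0.741.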

How the data were processed

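RNA from 12 libraries (4 lines, 3 conditions, 1 library each) had been prepared with Trizol and a stranded mRNA kit. Per the study's methods and the submitters' processing notes, the authors aligned reads to GRCh38 with STAR 2.5.3a and deposited raw counts for 57187 genes. The annotation release is not given in the sources used here. The deposited CPM table was not used. The 10 family genes and the gene lists were chosen with earlier results of these data known.

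Counts were scaled by TMM and tested with edgeR 4.0.16 (glmQLFit, glmQLFTest, R 4.3.3), with Benjamini-Hochberg adjustment over all genes tested (FDR). Condition comparisons kept the cell line as block, since libraries of 1 line deviated together (correlations of 0.929 to 0.968). Line comparisons kept condition as a term. SEs are the log2 fold change divided by the root of F. The test bounds p by that of a Poisson model, so that a p can exceed what its SE gives, as for *ERBB4*. Filters were filterByExpr by condition (17211 genes) or line (19204 genes), and a call needed FDR below 0.05 together with a log2 fold change of 1.5 or more in size. Within-line ratios used a prior count of 2 and exact 95% binomial counting intervals of the ratio of raw counts. With 1 library per line and condition, p-values of the condition comparisons measure how much the condition differences vary between lines. Those of the line comparisons measure the scatter left after the line and condition terms, over all libraries. The 3 libraries of a line are not replicate cultures of 1 condition.

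Named genes were all 10 members, *ERBB2*, *SIVA1*, the extremes of each list and the 2 genes most like each member, of which 5 in all are named. Exon lengths came from GENCODE by gene identifier, and positions and promoters from RefSeq GRCh38.p14. The scripts were checked on simulated counts. Alternatives were other normalizations and filters, DESeq2 1.42.0, limma-voom 3.58.1, no line block, FDR alone, another prior count and each line or condition left out. Figures were drawn with matplotlib 3.10.9.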

Additional observations from a re-analysis of the deposited data

Results flagged for a closer look

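Of 57 sets of 4 values examined (a gene's CPM over the lines of 1 condition, or its within-line log2 ratios in 1 comparison), 13 held a value far from the other 3. The cutoff would flag about 1 in 20 sets of independent, normally distributed values. The values here come from different lines and the sets share libraries, so that rate does not apply and no excess can be read from the 13. In HCC1954 these were *EPGN* in EV (4.51 CPM), *SIVA-WT* (7.78 CPM) and *SIVA-D160N* (15.0 CPM), *AREG* in *SIVA-D160N* (42.2 CPM) and *BTC* in *SIVA-D160N* (8.16 CPM). In SKOV3 they were *ERBB4* in EV (6.01 CPM), *SIVA-WT* (8.09 CPM) and *SIVA-D160N* (6.50 CPM), and the *NRG1* log2 ratio of *SIVA-D160N* to EV (1.07). In MDA-MB-231 they were *EREG* in EV (47.8 CPM), *SIVA-WT* (17.4 CPM) and *SIVA-D160N* (9.89 CPM), and *HBEGF* in EV (308 CPM). The *ERBB4*, *EREG* and *EPGN* values recur in all 3 conditions of a line.

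Some ratios passed 2-fold in opposite directions in different lines. In *SIVA-D160N* vs EV the log2 ratio of *AREG* was 2.35 in HCC1954 and -2.02 in MDA-MB-231, that of *EREG* was 1.55 and -2.27, and that of *HBEGF* was 1.03 and -1.05. In *SIVA-D160N* vs *SIVA-WT* the log2 ratio of *AREG* was 2.13 in HCC1954, 1.23 in SKOV3 (24 against 10 counts) and -1.26 in MDA-MB-231. With 1 library per line and condition, the difference between lines was not tested.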

How the results depend on the processing

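Calls among all genes in the condition comparisons depended on the setting. *SIVA-D160N* vs EV gave 1 call, but 172 with no filter, 12 with DESeq2, 5 with limma-voom, 0 with no replicate block and 0 to 2 when 1 line was left out (0 without MDA-MB-231 or SKOV3, 2 without HCC1954 or OVCAR8). *SIVA-WT* vs EV gave 0, but 10 with no filter, 1 with DESeq2 and 1 with limma-voom, and *SIVA-D160N* vs *SIVA-WT* gave 0, but 59 with no filter and 4 with DESeq2. No tested family gene was called in any of these, while *EPGN*, which the main filter removed, was called in *SIVA-D160N* vs EV with no filter. The ovarian minus breast comparison gave 1 call, 0 with limma-voom and 0 without SKOV3. At FDR alone the line comparisons, in the order of the report, gave 13225, 11914, 12608, 13471, 13124 and 13181 calls. With a prior count of 0.5, 26 within-line ratios passed 2-fold, against 21.

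Of 267 recomputed family values in the condition comparisons, 26 changed sign, none of them called. With no replicate block, *ERBB4* became 0.037 and *HBEGF* -0.80 in *SIVA-D160N* vs EV, *EGFR* -0.037 and *ERBB4* 0.35 in *SIVA-WT* vs EV, and *EREG* -0.62 and *HBEGF* -0.0084 in *SIVA-D160N* vs *SIVA-WT*. With limma-voom, *HBEGF* became -0.20 in *SIVA-D160N* vs EV, *ERBB4* 0.15 in *SIVA-WT* vs EV and *EREG* -0.43 in *SIVA-D160N* vs *SIVA-WT*. The cause was not tested. Leaving out 1 line moved *ERBB4* from -0.40 to 0.014, *EREG* from -1.83 to 0.89, *AREG* from -1.03 to 0.98, *TGFA* from -0.18 to 0.57, *HBEGF* from -0.25 to 0.58 and *BTC* from -0.0084 to 0.79 in *SIVA-D160N* vs EV. In *SIVA-WT* vs EV it moved *ERBB4* from -0.065 to 0.18, *HBEGF* from -0.44 to 0.20, *EGFR* from -0.081 to 0.12, *TGFA* from -0.24 to 0.22 and *NRG1* from -0.025 to 0.23, and in *SIVA-D160N* vs *SIVA-WT* *AREG* from -0.32 to 1.33, *EREG* from -0.58 to 0.94 and *TGFA* from -0.018 to 0.41. Ovarian minus breast, it moved *EGFR* from -0.26 to 0.67, *EREG* from -1.76 to 6.12, *HBEGF* from -0.62 to 1.47, *AREG* from -2.67 to 1.71, *TGFA* from -1.39 to 0.16 and *BTC* from -1.61 to 0.42. Leaving out 1 condition moved *EGFR* in MDA-MB-231 vs SKOV3 from -0.045 to 0.25, and in OVCAR8 vs SKOV3 *EREG* from -1.53 to 0.47 and *NRG1* from -0.082 to 0.37.

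Of 480 line values, 19 lost their call, 1 gained one and 3 changed sign. The losses were of *TGFA*, *AREG*, *ERBB4*, *EPGN*, *BTC*, *HBEGF* and *EREG*, at most 5 for 1 gene. With 1 library per line and condition, low counts limit *ERBB4*, *EPGN* and *EREG* outside their leading lines.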
